A study of Mus musculus with 4 samples.

Results

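Tubulin genes were examined in splenic CD8 T cells of mice given the dioxin TCDD or its solvent DMSO. The 8 genes were 4 α-tubulins (Tuba1a, Tuba1b, Tuba1c and Tuba4a), 3 β-tubulins (Tubb2a, Tubb5 and Tubb6) and the γ-tubulin gene Tubg1. They were taken as every probe set whose platform annotation names exactly 1 of these genes, which gave 14 of the 22626 probe sets tested. Where a gene had several probe sets, the one with the highest mean over the arrays was its main probe set. The main probe sets were thus chosen by that measured mean level, so levels are given as a description. The 8 genes were put together with earlier results of these data known, so their counts and medians below describe them and support nothing further. For 6 genes the main probe set carried 1 symbol. The main probe sets of Tuba1b and Tuba1c also carried the symbols of the pseudogenes Gm5620 and Gm6682, from which the annotation cannot separate them.

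Female C57BL/6 mice aged 8 to 12 weeks received TCDD at 10 µg/kg or DMSO by intraperitoneal injection and were killed after 24 h. Spleen cells of 4 mice a group were pooled and CD8 T cells sorted to a purity above 99%. Each treatment has 2 arrays, titled 1 and 2, and the labels do not say what the number marks or whether the 2 arrays came from separate pools. The p-values therefore cover only the spread between the 2 arrays of a group, which could in part be technical. Neither main fit included the other factor. The spread within a number is thus that between 1 TCDD and 1 DMSO array. The spread within a treatment is that between 1 array of each number. The values are log2 RMA values, which have no true zero, and the median of all probe sets was 6.01. The study asks, by its title, what TCDD does to these cells, and the arrays titled 1 were also compared with those titled 2.

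Microtubules are polymers of dimers of 1 α-tubulin and 1 β-tubulin, each drawn from several gene products called isotypes, and γ-tubulin sits in the ring complex that starts new microtubules at the centrosome. In CD8 T cells the centrosome moves to the contact with a target cell, and cytotoxic granules travel to it along microtubules. Cells also adjust the stability of tubulin mRNAs to the amount of unpolymerised tubulin. TCDD binds the aryl hydrocarbon receptor (AHR), a transcription factor that recognises a short DNA element with the core GCGTG.

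The DNA before the start sites of 3 of these genes is shown, because Tubb2a and Tuba4a had the largest differences between the array numbers and Tubb5 was lower in both TCDD arrays by both of its probe sets. Each run is the 250 bases before the RefSeq start on the gene's strand, 5′ to 3′, from the mouse build GRCm38.p6. Capitals mark matches on either strand to the AHR core GCGTG, the CCAAT box CCAAT, the TATA box TATAAA and the cAMP response element TGACGTCA, a palindrome counted once. The last of these was added after the Tubb2a sequence had been seen.
Tubb2a, chr13:34078009-34078258, minus strand: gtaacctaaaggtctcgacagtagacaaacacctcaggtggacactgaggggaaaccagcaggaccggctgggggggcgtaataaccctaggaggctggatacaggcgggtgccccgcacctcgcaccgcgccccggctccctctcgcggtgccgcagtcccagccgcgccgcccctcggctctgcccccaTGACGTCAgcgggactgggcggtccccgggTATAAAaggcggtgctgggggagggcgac
Tuba4a, chr1:75219295-75219544, minus strand: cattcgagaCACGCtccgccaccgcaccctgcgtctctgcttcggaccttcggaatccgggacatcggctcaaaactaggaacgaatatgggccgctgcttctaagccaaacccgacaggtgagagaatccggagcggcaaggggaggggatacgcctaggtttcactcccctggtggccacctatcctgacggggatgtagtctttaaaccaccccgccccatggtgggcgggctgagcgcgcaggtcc
Tubb5, chr17:35838302-35838551, minus strand: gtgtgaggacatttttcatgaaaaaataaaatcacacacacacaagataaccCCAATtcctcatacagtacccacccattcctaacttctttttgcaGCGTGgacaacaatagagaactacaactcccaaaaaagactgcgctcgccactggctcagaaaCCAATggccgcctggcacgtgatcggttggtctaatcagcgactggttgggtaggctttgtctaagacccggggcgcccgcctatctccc

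Promoters were taken for 6 of the 8 genes. Chromosome 18, which holds Tubb6, was left out of the search for these genes, and none was found for Tubg1. The window of Tubb2a held 1 TGACGTCA, ending 52 bases before the start, and 1 TATAAA, ending 24 bases before it, and held no GCGTG or CCAAT. Of 32851 RefSeq windows of this length, 1.55% held TGACGTCA and 12.4% held TATAAA. The window of Tuba4a held 1 GCGTG match, on the reverse strand, and that of Tubb5 held 1 GCGTG and 2 CCAAT matches. Of all windows 28.2% held GCGTG and 33.8% held CCAAT. Of the other 3 promoters, that of Tuba1b held 1 GCGTG match and those of Tuba1a and Tuba1c held 0. These matches describe letters in a window and do not show binding.

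No tubulin gene passed the test between TCDD and DMSO. Tubb5 and Tuba1a had both TCDD values below both DMSO values, and the groups overlapped for the other 6 genes. The limma test called 0 of 8 genes, and 0 of all probe sets (percent called 0), with 439 probe sets, or 1.94%, at an unadjusted limma p under 0.05 and 0 of the 14 tubulin probe sets among them. Both TCDD arrays were lower than both DMSO arrays for 12% of all probe sets and higher for 13.5%. The median difference, TCDD minus DMSO on the log2 scale, was −0.015 over the 8 genes and 0.01 over all probe sets.

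**Figure D1:**
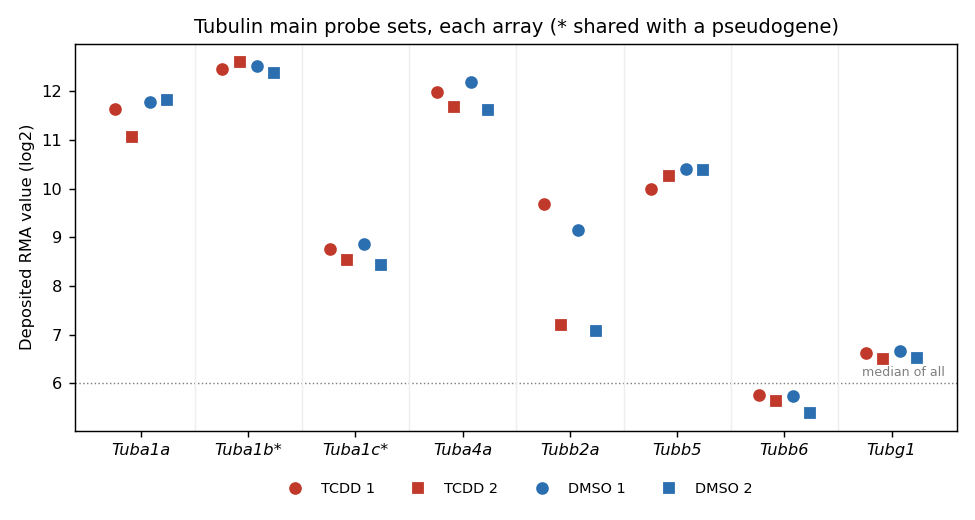
Deposited log2 RMA value of the main probe set of each tubulin gene (vertical axis) in each of the 4 arrays, with TCDD in red, DMSO in blue, circles for number 1 and squares for number 2; the dotted line is the median of all probe sets, 6.01, and levels of different genes cannot be compared. For Tubb2a the squares sit at 7.19 and 7.07 and the circles at 9.69 and 9.16, while for Tubb5 both red points lie below both blue ones.

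Among the β-tubulins, Tubb5, the widely expressed isotype that is abundant in lymphocytes, was at 10.00 (replicate 1) and 10.26 (replicate 2) after TCDD and at 10.41 and 10.38 after DMSO. Both TCDD arrays were the lower ones, and replicate 1 held most of the gap. Its means were 10.13 ± 0.184 (SD, n = 2) and 10.395 ± 0.021 (n = 2), a difference of −0.265 with 95% limits of −0.61 and 0.08 from the moderated fit (limma adjusted p = 0.9973). Within the numbers the difference was −0.41 and −0.12. The other probe set of Tubb5 gave 10.09 and 10.17 in the TCDD arrays and 10.39 and 10.23 in the DMSO arrays. It put the groups in the same order, with a difference of −0.18. In size, differences at least as large as that of the main probe set were found for 10.8% of all probe sets.

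Tuba1a, an α-tubulin best known from developing neurons, was at 11.64 and 11.07 after TCDD and at 11.78 and 11.83 after DMSO, replicate 1 first. TCDD replicate 2 was the lowest array, and the other 3 lay between 11.64 and 11.83. The difference of −0.45 had limits of −1.001 and 0.10 (limma adjusted p = 0.9973), and was −0.14 within number 1 and −0.76 within number 2. Without TCDD replicate 2 it was −0.165. A difference at least as large as the −0.45 over all arrays, in either direction, was found for 3.11% of all probe sets. This probe set, like the main ones of Tuba1b and Tuba1c, is of a type marked for possible cross hybridisation, which matters for α-tubulins because their coding sequences are much alike. The other Tuba1a probe set, shared with Gm6682 and below the median level at 5.76, differed by 0.

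The other α-tubulins differed little between the treatments. The main probe set annotated to Tuba1b and Gm5620 gave 12.45 and 12.61 in the TCDD arrays and 12.51 and 12.37 in the DMSO arrays, with overlapping groups and a difference of 0.09 (limits −0.23 and 0.41). Tuba1b is a broadly expressed α-tubulin of dividing and resting cells. The main probe set annotated to Tuba1c and Gm6682 gave 8.77 and 8.53 in the TCDD arrays and 8.87 and 8.43 in the DMSO arrays, so the group means were equal at 8.65 (limits −0.50 and 0.50). Tuba4a, an α-tubulin whose gene does not encode the terminal tyrosine that other isotypes carry, gave 11.99 and 11.67 in the TCDD arrays and 12.19 and 11.62 in the DMSO arrays. Its groups overlapped, and the difference was −0.075 (limits −0.69 and 0.54).

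Tubb2a, Tubb6 and Tubg1 also had overlapping groups. For Tubb2a, a β-tubulin prominent in neurons and present in many other cells, the difference of 0.325 had limits of −2.45 and 3.10, because both treatments held 1 high and 1 low array. With the array number added to the fit, the same difference had limits of −0.13 and 0.78. TCDD was higher by 0.53 within number 1 and by 0.12 within number 2. Tubb6, a β-tubulin of low abundance in most tissues, had a main probe set below the median level and differed by 0.135 (limits −0.27 and 0.54). Tubg1, the main γ-tubulin gene, gave 6.63 and 6.50 in the TCDD arrays and 6.67 and 6.52 in the DMSO arrays, a difference of −0.03 with limits of −0.34 and 0.28. A p-value from permuting 2 arrays against 2 cannot go below 0.3333 (two-sided), so none is given for single genes.

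**Figure D2:**
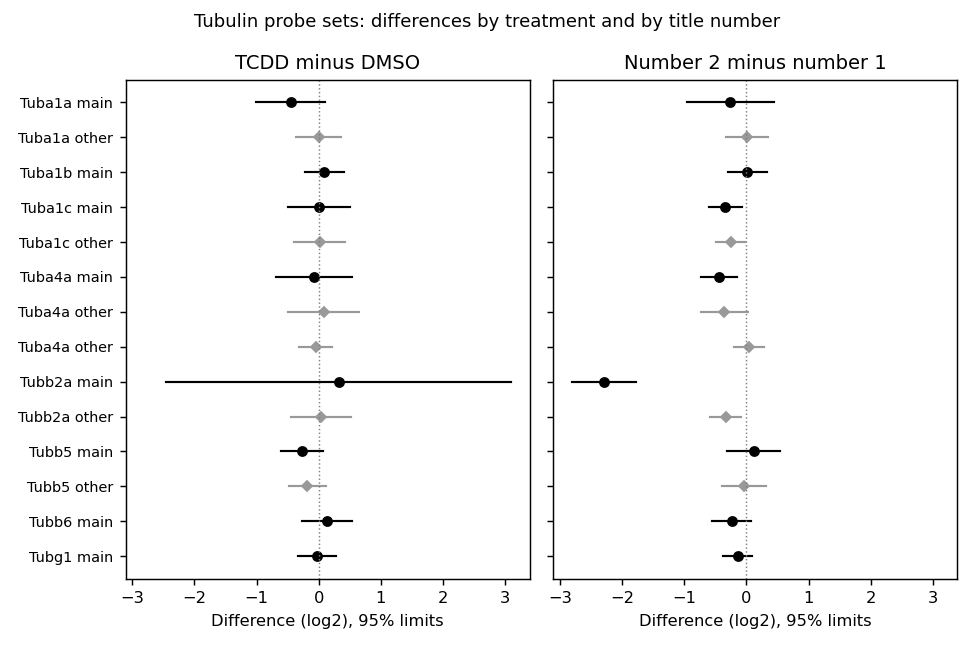
Differences on the log2 scale (horizontal axes) for the 14 tubulin probe sets, TCDD minus DMSO on the left and number 2 minus number 1 on the right, with points for the estimate, bars for 95% limits from limma, black for main and grey for other probe sets. On the left every bar crosses 0, and on the right the main Tubb2a probe set lies at −2.295, apart from the others.

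Over the 8 genes the median size of the difference was 0.2475 between the array numbers and 0.1125 between the treatments. Over all probe sets it was 0.105 and 0.09. Tubb2a was far lower in both arrays numbered 2 than in both numbered 1, and Tuba4a, Tuba1c, Tubb6 and Tubg1 were lower there by smaller amounts. Tuba1a, Tuba1b and Tubb5 had overlapping groups. So 5 of 8 genes were lower and 0 higher in both arrays numbered 2, where 13.9% of all probe sets were lower and 22.7% higher. The median difference, number 2 minus number 1, was −0.2475 over the 8 genes and 0.035 over all probe sets. The limma test called 0 of the 8 genes, and 1 of all probe sets (0.00442%). An unadjusted limma p under 0.05 was found for 3 of the 8 main probe sets, those of Tubb2a, Tuba4a and Tuba1c, and for 7.46% of all probe sets.

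Tubb2a measured 9.69 in TCDD replicate 1 and 9.16 in DMSO replicate 1, against 7.19 in TCDD replicate 2 and 7.07 in DMSO replicate 2. Both arrays of a number lay close together and far from the other pair. The means were 9.425 ± 0.375 (SD, n = 2) for number 1 and 7.13 ± 0.085 (n = 2) for number 2, each over 1 TCDD and 1 DMSO array. The difference of −2.295, with limits of −2.81 and −1.78, is a 4.908-fold lower signal in the arrays numbered 2. The unadjusted limma p was 0.0001212, and the adjusted limma p of 0.1677 missed the threshold. Over the other settings tried the adjusted limma p ran from 0.05435 to 0.9968. Among TCDD arrays alone it was −2.50, and among DMSO arrays alone −2.09. Of 22626 probe sets, 0.0707% had a difference of this size or larger in either direction.

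The size of the Tubb2a difference depended on the probe set. Its other probe set, below the median level, measured 5.33 and 5.23 in the arrays numbered 1 against 4.93 and 4.96 in those numbered 2. The arrays were in the same order, but the difference was −0.335 (limits −0.58 and −0.09). The name of the main probe set marks it as one that can match transcripts of more than 1 gene. The closest relative measured by a probe set of its own, Tubb2b, was at 5.60 and 5.16 against 4.27 and 4.70, a difference of −0.895, and it too lay below the median level. The part of shared hybridisation in these values was not tested.

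Tuba4a measured 11.99 and 12.19 in the arrays numbered 1 against 11.67 and 11.62 in those numbered 2. All of its number 2 values were lower, by −0.445 on average with limits of −0.74 and −0.15 (limma adjusted p = 0.5197). Its other probe sets did not all do the same. One gave −0.355, with groups that did not overlap, and the other 0.045, with values between 7.51 and 7.60 in all 4 arrays.

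The main probe set of Tuba1c and Gm6682 differed by −0.34 (limits −0.60 and −0.08; limma adjusted p = 0.592), and the other, at 7.80 and 7.83 against 7.59 and 7.53, by −0.255. Both had the arrays numbered 2 below those numbered 1. Tubb6 measured 5.76 and 5.74 against 5.64 and 5.39, a difference of −0.235 that lay below the median level. Tubg1 measured 6.63 and 6.67 against 6.50 and 6.52, a difference of −0.14 with limits of −0.38 and 0.10.

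Tubb5 and Tuba1b, the β-tubulin and α-tubulin of general use, showed no such shift. Tubb5 differed by 0.115 between the numbers (limits −0.32 and 0.55) and the probe set of Tuba1b and Gm5620 by 0.01 (limits −0.30 and 0.32). Both pairs of limits contain the differences of Tubb6 and Tubg1, so a shift of that size could have been missed. Tuba1a differed by −0.26, with −0.57 among TCDD arrays and 0.05 among DMSO arrays.

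**Figure D3:**
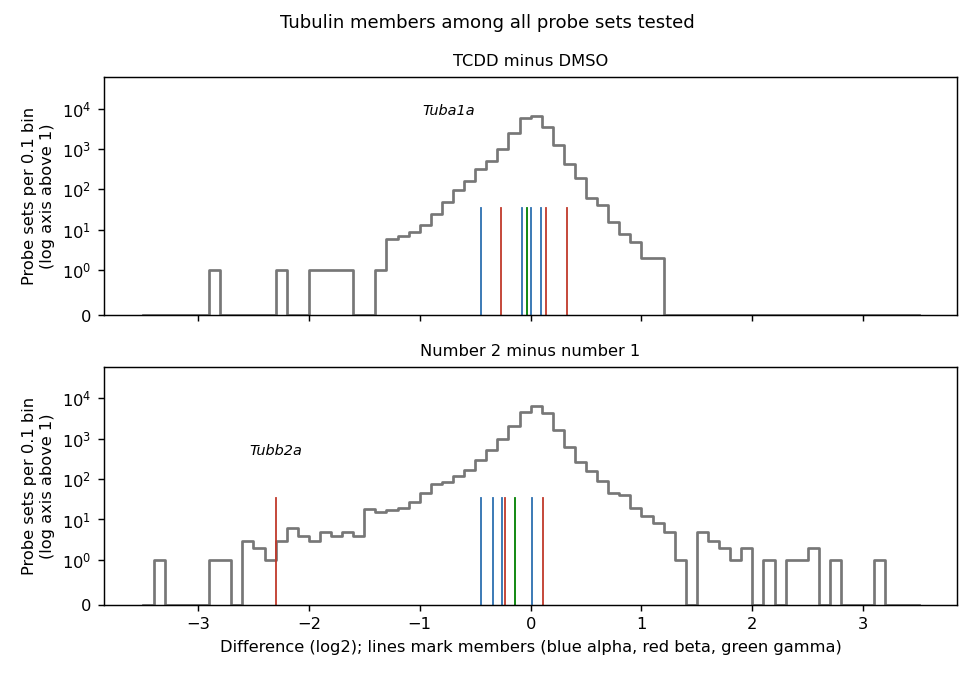
Number of probe sets (vertical axis, logarithmic above 1) in bins of 0.1 of the log2 difference (horizontal axis) for TCDD minus DMSO above and number 2 minus number 1 below; vertical lines mark the main probe sets of the 8 tubulin genes (blue α, red β, green γ) and their height has no meaning. In the upper plot the lines run from −0.45 for Tuba1a to 0.325 for Tubb2a, while Tubb2a at −2.295 lies in the thin lower tail of the other.

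The genes with the profile nearest to that of Tubb2a were sought among 7384 genes above the median level, by the root mean square difference between profiles centred on their own means over the 4 arrays. The nearest was Vps37b, which encodes a subunit of the ESCRT-I sorting complex, at 0.046. It measured 10.23 and 9.82 in the arrays numbered 1 against 7.79 and 7.71 in those numbered 2. Next came Zfand2a at 0.143, Klf10, a Krüppel-like repressor of transcription, at 0.154, the clock gene Per1 at 0.163 and Errfi1, an inhibitor of EGF receptor signalling, at 0.222. All 5 were lower in the arrays numbered 2, with differences from −2.51 to −2.025. For Tuba1a the nearest were Pkm (0.022), Cmtr1 (0.030), Ttc33 (0.033), S1pr1 (0.033) and Chtop (0.044), all lowest in TCDD replicate 2. Over 4 arrays this nearness is a description only.

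**Figure D4:**
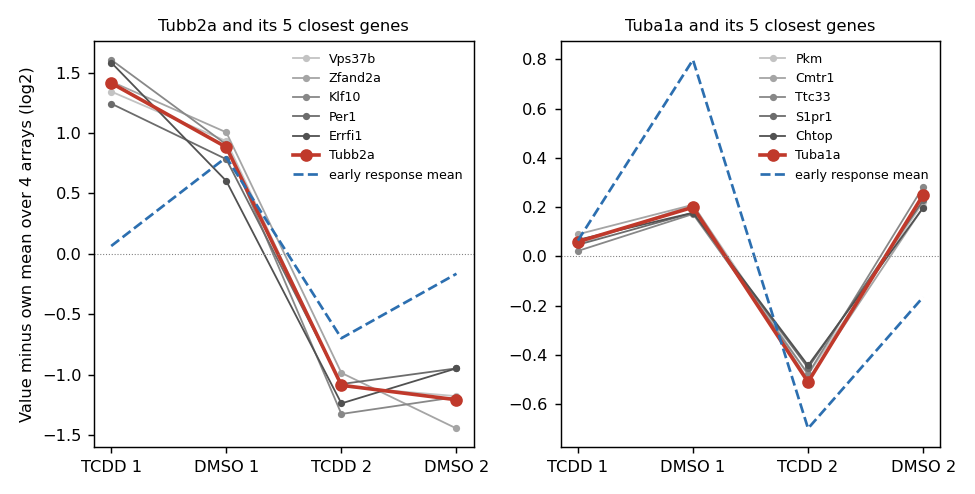
Value minus the gene's own mean over the 4 arrays (vertical axes, log2) in each array (horizontal axes) for Tubb2a on the left and Tuba1a on the right in red, the 5 genes nearest to each in grey and the mean of the early response list in dashed blue; lines only join the values of 1 gene. Tubb2a and its nearest genes are high in both arrays numbered 1, and Tuba1a and its nearest genes are low in TCDD replicate 2 alone.

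Early response genes are induced within minutes of stimulation or of handling cells. Over the 22 measured genes of that list the mean level was 9.22 and 9.95 in TCDD and DMSO replicates 1 and 8.45 and 8.99 in replicates 2. Of these genes 11 were lower in both arrays numbered 2, 0 were higher and 11 overlapped, with a median difference of −0.7425. Among all probe sets 13.9% were lower and 22.7% higher there. For TCDD the median over the list was −0.6175, and 8 genes were lower in both TCDD arrays, 1 higher and 13 overlapped. Among all probe sets 12% were lower and 13.5% higher in both TCDD arrays. The largest differences were −1.695 for the AP-1 subunit gene Fos (TCDD) and −2.335 for the transcription factor gene Klf4 (numbers). The limma test called 0 of the list's genes in either comparison, with 10 at an unadjusted limma p under 0.05 for the numbers and 6 for TCDD. Such a p was found for 7.46% of all probe sets for the numbers and 1.94% for TCDD. The part of the early response genes in the tubulin values was not tested.

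All 8 markers fixed for CD8 T cells had means above the median level, with list means of 9.215 to 9.7612 over the arrays. Most of them are shared by all T cells, and the coreceptor genes Cd8a (8.17 to 9.46) and Cd8b1 (8.16 to 8.95) are the ones that define the sorted cells. Other cells' markers also lay above that level, among them 2 of 3 measured for CD4 T cells, with Cd4 at 6.80 to 7.23, 4 of 5 for monocytes and macrophages, 3 of 4 for neutrophils and 2 of 2 for dendritic cells. The counts were 2 of 4 for B cells, 1 of 3 for NK cells, 2 of 3 for plasma cells, 1 of 2 for erythroid cells and 2 of 4 for platelets. Of the CD8 T cell markers 3 were lower in both TCDD arrays, 0 higher and 5 overlapped, where 12% of all probe sets were lower and 13.5% higher. In both arrays numbered 2, 2 of these markers were higher and 0 lower, where 22.7% of all probe sets were higher and 13.9% lower. The coreceptor genes differed from each other for TCDD. Cd8a was lower in both TCDD arrays, by −0.73, and Cd8b1 differed by −0.07 with overlapping groups. Neutrophil markers, of which 4 of 5 were measured, had mean levels of 5.735 and 5.63 in the arrays numbered 1 and 6.095 and 7.47 in those numbered 2, and 3 were higher in both of the latter. The calprotectin genes S100a8 at 8.67 and S100a9 at 7.80 were highest in DMSO replicate 2. Plasma cell markers, 3 of 3 measured, had means of 5.71 and 5.6267 against 6.0533 and 6.6033, with 2 higher in both arrays numbered 2. Monocyte and macrophage markers, 5 of 5 measured, had means of 6.72 and 6.424 against 6.918 and 6.80, with 1 higher. The lists for CD4 T, B, NK, dendritic, erythroid cells and platelets had medians between −0.22 and 0.205 for the numbers. In bulk samples fewer cells of a type and less RNA per cell cannot be told apart, and the part of other cells in the tubulin values was not tested. The largest difference of each list is given among markers with a mean above the median level. Some markers below it differed more, among them S100a9 at 1.91 for the numbers. Above it the largest for the numbers were 1.805 for S100a8, 1.75 for the immunoglobulin joining chain gene Jchain, 1.05 for the macrophage growth factor receptor gene Csf1r, 0.56 for Cd8a, 0.49 for Cd79b, −0.39 for Flt3, 0.225 for Cd4, 0.205 for Tyrobp, 0.135 for Gp9 and −0.065 for Klf1. For TCDD they were −1.315 for S100a8, −0.73 for Cd8a, −0.63 for Jchain, 0.555 for the lysozyme gene Lyz2, 0.31 for Flt3, 0.30 for Cd79b, 0.195 for Tyrobp, 0.18 for Cd40lg, 0.145 for Klf1 and 0.015 for Gp9. Of these TCDD differences, only those of Cd8a, Lyz2 and Cd40lg came with groups that did not overlap. S100a8 at 8.67 and Jchain at 8.04 were highest in DMSO replicate 2. The limma test called 0 markers of any of these cell types in either comparison, with 5 at an unadjusted limma p under 0.05 for the numbers and 2 for TCDD. Such a p was found for 7.46% and 1.94% of all probe sets.

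Of 12 further tubulin genes 8 were measured by a probe set of their own and 2, Tubb4b and Tubb4a, lay above the median level. The main probe set of Tubb4b, another widely expressed β-tubulin, gave 8.43 and 8.39 in the TCDD arrays and 8.35 and 8.01 in the DMSO arrays. The difference was 0.23 with both TCDD arrays higher. It differed by −0.19 between the numbers, with overlap. Its other probe sets did not all do the same for TCDD. The one at 8.40 and 7.90 against 8.38 and 7.64 differed by 0.14 with overlap. Another, below the median level, differed by 0.21 with both TCDD arrays higher, and the rest overlapped. Tubb4a stayed between 6.92 and 6.96. Below the median level were Tubb2b, Tubb3, which differed by 0.17 between the numbers, Tuba3b, Tuba8, Tubg2 and the δ-tubulin gene Tubd1, of which the last 4 differed between the numbers by −0.045 to 0.085.

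Genes that fold, nucleate, bind, modify or move along tubulin were taken from 5 lists, and the limma test called 0 of their genes in either comparison. At an unadjusted limma p under 0.05 there were 3 folding, 2 binding, 1 modifying and 2 motor genes for the numbers and 1 folding gene for TCDD. Such a p was found for 7.46% of all probe sets for the numbers and 1.94% for TCDD. The counts of all 5 lists stand beside these shares of all probe sets. Both TCDD arrays were lower for 12% and higher for 13.5%, and both arrays numbered 2 lower for 13.9% and higher for 22.7%. Of the folding cofactors and chaperonins, which assemble tubulin dimers, 21 of 22 were measured, with medians of 0.025 for TCDD and −0.07 for the numbers. After TCDD 4 were lower in both arrays and 0 higher, and both arrays numbered 2 were lower for 5 and higher for 3. The prefoldin subunit genes Vbp1 and Pfdn6 had the largest differences, −0.675 for TCDD and 0.525 for the numbers, each with overlapping groups. The γ-tubulin ring complex list, 8 of 11 measured, had medians of 0 and 0.0075. For TCDD all 8 overlapped, and for the numbers 2 were lower and 2 higher. Its largest differences were 0.255 for the scaffold gene Akap9 (TCDD) and 0.375 for Mzt2 (numbers).

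Microtubule-associated protein genes, 23 of 27 measured, had medians of 0.03 and −0.075, with 6 lower and 3 higher in both arrays numbered 2 and 1 each way for TCDD. The severing enzyme gene Katna1 differed by −0.495 for TCDD, and the plus-end protein gene Clasp2 by −0.50 for the numbers. Genes of tubulin modification and autoregulation, 9 of 14 measured, had medians of 0.055 and −0.025. For TCDD 2 were lower and 1 higher, and for the numbers 1 was lower and 3 higher. The deglutamylase gene Agtpbp1 differed by −0.145 for TCDD, and Svbp, the partner of the enzymes that remove the terminal tyrosine, by 0.31 for the numbers. Motor genes, 26 of 32 measured, had medians of 0.0425 and 0.0375, with 2 lower and 1 higher for TCDD and 7 lower and 4 higher for the numbers. Kif2a, a kinesin that takes microtubules apart, measured 7.76 and 7.36 in the arrays numbered 1 against 6.96 and 6.44 in those numbered 2, a difference of −0.86 with no overlap (limma adjusted p = 0.5698).

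Genes of mitosis and replication, 27 of 28 measured, had medians of −0.035 for TCDD and −0.055 for the numbers. Both arrays numbered 2 were lower for 7 and higher for 2, and both TCDD arrays lower for 3 and higher for 2. Among all probe sets the lower and higher shares were 13.9% and 22.7% for the numbers and 12% and 13.5% for TCDD. The ribonucleotide reductase gene Rrm2 differed by −0.645 for the numbers, at 7.66 and 7.64 against 6.95 and 7.06, and Pcna by −0.50 for TCDD, with 8.14 in TCDD replicate 2 and 9.11 to 9.20 in the other arrays. The limma test called 0 of these genes in either comparison, with 3 at an unadjusted limma p under 0.05 for the numbers and 1 for TCDD. Such a p was found for 7.46% and 1.94% of all probe sets.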

How the data were processed

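RNA of sorted CD8 T cells was amplified and hybridised to Affymetrix arrays, per the labels' protocols. The authors deposited 1 log2 value per probe set and array, made with RMA per the submitters' processing notes (version not given in the sources used here). Their range, 3.09 to 14.62, is that of a log2 scale, and the array medians lay between 5.97 and 6.03. Of 22690 probe sets, 64 controls were left out. Names came from the platform annotation, with symbols updated by Entrez identifier through RefSeq (GRCm38.p6): 20380 probe sets had 1 symbol, 691 several and 1555 none.

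Each comparison was fitted to 22626 probe sets on all 4 arrays with limma 3.58.1 (lmFit, eBayes, no covariate, no filter) in R 4.3.3, with Benjamini-Hochberg adjustment and a threshold of 0.05. The number of arrays limits the precision. On simulated data with 22626 probe sets the number comparison recovered 29% of 2-fold and 89.2% of 4-fold changes, and the TCDD comparison 10.8% and 80.8%. Mean false calls per run were 5.6 and 5. The simulated noise was independent between arrays and planted changes were present, unlike in these data, where same-numbered arrays deviated together. These rates therefore need not hold here, and the 4.908-fold Tubb2a difference was not called. The genes and lists were chosen with earlier results of these data known. The text names the 8 genes, all other measured tubulins, from each list the gene with the largest difference per comparison above the median level, the 5 genes nearest in profile to 1 α- and 1 β-tubulin, and marker genes. S100a9 and Rgs1 were named after their values were seen. Alternatives were median centring, a further quantile normalisation, 2 level filters, array weights, a robust fit with a variance trend, removal of those named _x_at, _s_at or _a_at, gene means, a replicate block, each array left out, and, chosen after seeing the data, 1-symbol probe sets only.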

Additional observations from a re-analysis of the deposited data

Results flagged for a closer look

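Opposite directions within the arrays of the same number or treatment stood out for 5 main probe sets. Each rests on 1 array a cell, and none of these differences was tested. For Tuba1a the difference between numbers was −0.57 in TCDD arrays and 0.05 in DMSO arrays, which differ by −0.62. For the probe set of Tuba1b and Gm5620, TCDD minus DMSO was −0.06 within number 1 and 0.24 within number 2, and number 2 minus number 1 was 0.16 in TCDD arrays and −0.14 in DMSO arrays, a gap of 0.30 either way. For that of Tuba1c and Gm6682, TCDD minus DMSO was −0.10 and 0.10 within the numbers, a gap of 0.20. For Tuba4a it was −0.20 and 0.05, a gap of 0.25. For Tubb5 the difference between numbers was 0.26 in TCDD arrays and −0.03 in DMSO arrays, a gap of 0.29.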

How the results depend on the processing

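For TCDD minus DMSO, limma called 0 probe sets in all 14 alternatives, and the median over the tubulins stayed between −0.0525 and 0.015, or between −0.25 and 0.185 with an array left out. For number 2 minus number 1, the 1 call, Rgs1, compared with 11 calls with trend and robust fitting, 7 for gene means and 0 with treatment as a covariate (the replicate block fit; 1361 at an unadjusted p under 0.05 against 1688). With any 1 array left out there were 0 calls (from 494 to 2709 at an unadjusted p under 0.05). The tubulin median of −0.2475 was −0.2875 with median centring, −0.1875 for gene means and −0.2775 to −0.2175 with an array left out. Tubb2a was at −0.335 without probe sets named for shared matches, −1.315 for gene means and −2.56 to −2.03 with an array left out. No tubulin passed in any setting. Same-numbered arrays deviated together (correlation 0.2338), but the labels do not pair them, and the replicate block gave 0 calls for TCDD, with 612 probe sets at an unadjusted p under 0.05 against 439 without it. Of 216 tubulin values under alternatives, 7 moved by more than the spread between arrays, and the cause was not tested. This count is no measure of stability. Leaving out 1 array cannot move a difference by more than that spread, which is made of the same array gaps. The level filters, array weights, robust fit and replicate block left the differences of the main probe sets as they were. Signal below the median level limits Tubb6 and the second probe sets of Tubb2a and Tuba1a.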

Other observations

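Tubb4b, outside the 8 genes, had a second probe set above 7 in every array that measured 8.40 and 8.38 in the arrays numbered 1 against 7.90 and 7.64 in those numbered 2, a difference of −0.62 with no overlap. Its main probe set, of a type marked for possible cross hybridisation, differed by −0.19 with overlap.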
